A study of Mus musculus
Mus spretus with 18 samples.

Results

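Exon inclusion was compared between the 2 parental alleles in the heart of F1 hybrid mice. One parent was C57BL/6J, the widely used inbred laboratory mouse, and the other SPRET/EiJ, an inbred strain derived from wild Mus spretus. The 2 heart libraries came from 8-week-old female F1 mice with a C57BL/6J mother and a SPRET/EiJ father, 1 animal each, untreated, and each library gave 1 set of junction reads per allele, so 4 sets in all. The comparison covered 16684 autosomal skipped exon (SE) events in 6503 genes with 20 or more junction reads on each allele in each replicate, out of 21840 SE events in the heart table. The 6 tissue tables used for comparison (heart, cerebral cortex, kidney, lung, spleen and embryonic stem cells, ESC) held 63955 distinct events that met the same limits in at least 1 tissue. The cross was made in 1 direction, so the C57BL/6J allele is always the maternal copy, and strain and parent of origin cannot be told apart.

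An SE event is a cassette exon that the spliceosome either joins to both flanking exons or leaves out together with the surrounding introns. In heart muscle, cassette exons are known to tune sarcomere proteins, ion channels and adhesion complexes, often with forms that differ between fetal and adult life. Both alleles of a hybrid lie in the same nuclei and meet the same splicing factors. Percent spliced in (PSI) is the share of transcripts that contain the exon, here computed from inclusion and skipping junction reads, each divided by the effective length of its form. ΔPSI is C57BL/6J PSI minus SPRET/EiJ PSI, averaged over 2 replicates, and errors are SD with n = 2.

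Junction reads summed over all events of the heart table were 24185484 and 23320055 on the C57BL/6J allele and 23566715 and 22818147 on the SPRET/EiJ allele, with overlapping events counting a read more than once. The C57BL/6J share was 50.6% and 50.5%. All 12 cardiomyocyte markers were at 1 TPM (a length-scaled measure of expression) or more, and their summed TPM was 88201 and 87819. Of 8 skeletal muscle markers 3 were at 1 TPM or more in both libraries, led by Acta1, skeletal alpha-actin, at 255 and 227 TPM, and the list summed to 259 and 232 TPM. The skeletal myosins Myh1, Myh2 and Myh4 were at 0.1 TPM or below, and 4 neuron markers summed to 0.0698 and 0.41 TPM. Red blood cell markers summed to 3693 and 4651 TPM and macrophage markers to 261 and 384 TPM, higher in replicate 2. Each library carries both alleles, so these levels are shared by the groups compared.

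The question was which exons differ between the alleles and by how much. Of the 16684 events, 494 (2.96%) were called, that is, they had an adjusted p below 0.05 in a quasi-binomial logistic fit and a |ΔPSI| of at least 0.1. Inclusion was higher on C57BL/6J at 258 of them (1.55%) and higher on SPRET/EiJ at 236 (1.41%), in 382 genes and 472 distinct exons. The sign was the same in both replicates at 491, and 458 reached 0.1 in each replicate. The median |ΔPSI| was 0.282 among called events and 0.0143 among all. At 91 events |ΔPSI| was at least 0.5 and at 39 at least 0.7. A limma fit on logit PSI called 0 events, with 2184 at an unadjusted p below 0.05 against 1971 in the quasi-binomial fit. PSI from allelic reads lay within 0.1 of PSI from all reads at 429 of the 494 (86.8%), against 95.4% of all events.

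**Figure D1:**
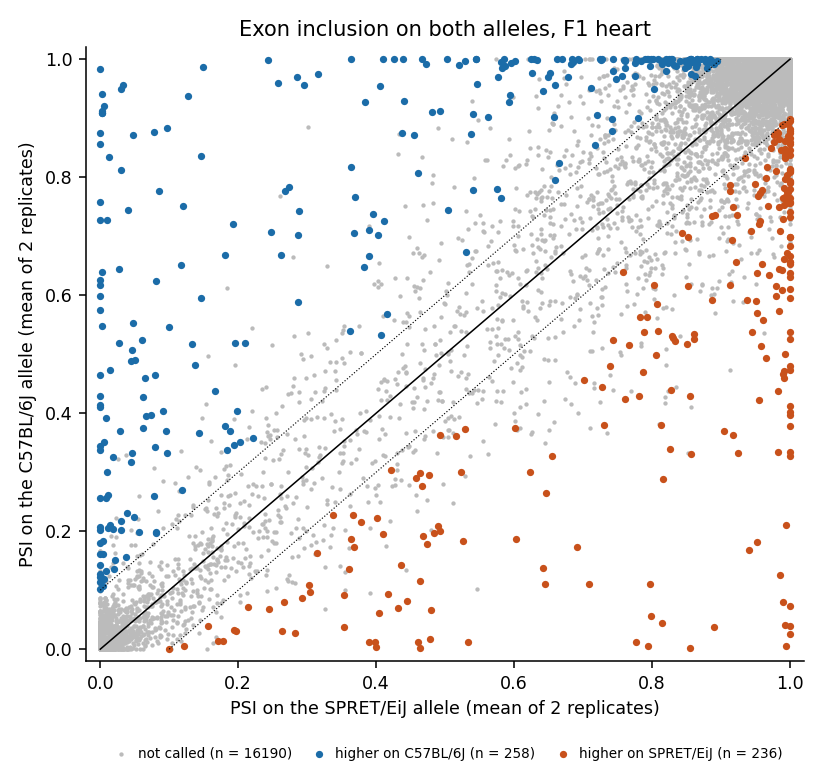
PSI on the C57BL/6J allele (vertical) against PSI on the SPRET/EiJ allele (horizontal) for 16684 events, each a mean of 2 replicates, with the solid line at equality and dotted lines at a difference of 0.1. The 258 blue and 236 orange points are called events, of which 91 lie at least 0.5 from the line of equality.

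Most exons were constitutive or skipped alike on both alleles. PSI was above 0.9 in all 4 sets or below 0.1 in all 4 at 12280 events (73.6%), which a called exon could not be by construction, and 4404 events remained. Called exons had a median length of 107 bp, against 113 bp for all events. Their length was a multiple of 3 at 256 (51.8%), against 44.1% of all events and 48.7% of those 4404. Exons of 30 bp or less were 18 of the called (3.64%), against 2.09% of all and 3.29% of the 4404. At the 574 events with a lowest read number of 20 to 24 the median |ΔPSI| was 0.0633, and at 619 events just outside the limit, with 15 to 19, it was 0.0669.

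A near-complete switch, with a PSI of at least 0.9 on 1 allele and at most 0.1 on the other in both replicates, was seen at 12 events in 10 genes, 6 events in each direction. Those with more C57BL/6J inclusion lay in Pkp4, Mrps17 (3 overlapping events), Zscan21 and Cdc26. Those with more SPRET/EiJ inclusion included those in Tor1aip1, Gm11627, Gpatch4, Alg6 and Mff, of which Alg6 and the Mff event departed by more than 0.1 from the PSI of all reads. The Alg6 event rested on 20 to 31 junction reads per allele and replicate.

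The largest difference toward C57BL/6J was at a 132-bp exon of Pkp4, which encodes plakophilin 4, an armadillo protein of cell junctions (mm10 chr2:59305066-59305197, plus strand). Its PSI was 0.977 and 0.99 on C57BL/6J and 0 and 0 on SPRET/EiJ, where 0 of 472 and 0 of 529 junction reads supported inclusion, which allows a share of up to 0.636% and 0.567% by counting error alone. ΔPSI was 0.984 ± 0.0092 (adjusted p = 9.12e-30 in the quasi-binomial fit). The 80-bp exon of Mrps17, a protein of the small mitochondrial ribosomal subunit (chr5:129715684-129715763), had a PSI of 0.932 and 0.949 on C57BL/6J and of 0.00444 and 0.00172 on SPRET/EiJ. Zscan21, a zinc finger transcription factor, had an 85-bp exon (chr5:138117836-138117920) at 0.967 and 0.947 against 0.0376 and 0.0289. In Cdc26, a subunit of the anaphase-promoting complex, a 97-bp exon (chr4:62404456-62404552) was at 0.942 and 0.958 against 0.0346 and 0.0265. In each of these 4 exons one allele included the exon nearly always and the other nearly never.

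Other leading exons toward C57BL/6J were partly included on that allele. Mtif2, the mitochondrial translation initiation factor, had a 151-bp exon (chr11:29526693-29526843) at 0.826 and 0.841 on C57BL/6J against 0.0244 and 0 on SPRET/EiJ. Rmnd1, a mitochondrial inner membrane protein needed for translation there, had a 97-bp exon (chr10:4428369-4428465) at 0.778 and 0.846 against 0.0326 and 0.0269. A 77-bp exon of Sync, which encodes syncoilin, an intermediate filament protein of striated muscle (chr4:129306628-129306704), was at 0.878 and 0.874 against 0.111 and 0.0435.

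Fut8, the enzyme that adds core fucose to N-glycans, had a 93-bp exon (chr12:77323845-77323937) at 0.899 and 0.842 against 0.0154 and 0.0787. Cenpa, the centromeric histone H3 variant, had a 137-bp exon (chr5:30669692-30669828) at 0.685 and 0.772 against 0 and 0. Pld3, a lysosomal member of the phospholipase D family, had a 98-bp exon (chr7:27545188-27545285) at 0.867 and 0.805 against 0.15 and 0.143. The exon listed under the ion channel gene Trpc2 (95 bp, chr7:102069897-102069991) lay outside the RefSeq position of that gene (chr7:102083116-102096864). This exon and that of the long noncoding RNA Pvt1 (139 bp, chr15:62244719-62244857) rested on fewer reads. Trpc2 had 28 to 58 junction reads per allele and replicate and Pvt1 had 24 and 27 on C57BL/6J, and their ΔPSI was 0.856 ± 0.11 and 0.757 ± 0.061. The other leading exons lay in Gm20619, 4631405J19Rik and Gm16340, with ΔPSI of 0.838, 0.786 and 0.692, and 4631405J19Rik had only 25 and 26 reads on SPRET/EiJ. That of Gm20619 was included nearly always on C57BL/6J, at 0.974 and 1, against 0.2 and 0.0973. Adjusted p over the 15 exons ranged from 9.12e-30 to 5.19e-05.

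The largest difference toward SPRET/EiJ was at a 56-bp exon of Tor1aip1, which encodes LAP1, a protein of the inner nuclear membrane (chr1:156019968-156020023, minus strand). Its PSI was 0.00915 and 0.00214 on C57BL/6J and 0.994 and 0.993 on SPRET/EiJ, with a ΔPSI of -0.988 ± 0.0042 (adjusted p = 9.58e-15).

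Several of the other leading exons toward SPRET/EiJ were skipped nearly always on C57BL/6J. Apobec3, a cytidine deaminase that restricts retroviruses, had a 99-bp exon (chr15:79899020-79899118) at 0 and 0.00513 on C57BL/6J against 0.827 and 0.882. Gpatch4, a G-patch protein, had a 135-bp exon (chr3:88043467-88043601) at 0.0579 and 0.0204 against 1 and 1. Gpank1, another G-patch protein, had a 232-bp exon (chr17:35122229-35122460) at 0 and 0.0112 against 0.833 and 0.754. Atg7, the E1-like enzyme of autophagy, had a 53-bp exon (chr6:114672791-114672843) at 0.118 and 0.102 against 0.686 and 0.731, from 27 and 31 reads on C57BL/6J.

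Others were included in part on C57BL/6J and nearly always on SPRET/EiJ. The 108-bp exon of Tcof1, a nucleolar protein of ribosome biogenesis (chr18:60827340-60827447), was at 0.378 and 0.286 against 0.954 and 0.896. The 112-bp exon of Josd2, a deubiquitinating enzyme (chr7:44468306-44468417), was at 0.381 and 0.443 against 1 and 1. Further exons lay in Gm11627, 2900076A07Rik, Rcbtb1, Tmem234 and 1700055N04Rik, with ΔPSI of -0.975, -0.86, -0.771, -0.65 and -0.598, beside Mff below. Those of Gm11627, 2900076A07Rik and Rcbtb1 were mostly skipped on C57BL/6J, at a mean PSI of 0.0254, 0.126 and 0.0444. Few reads lay behind some of these further exons, with 23 to 36 per allele and replicate for Gm11627 and 23 to 52 for Rcbtb1. For 1700055N04Rik there were 25 and 22 on C57BL/6J. The adjusted p over the 15 leading exons in this direction was at most 0.00462. Across both directions 11 of the 30 leading exons had a length that is a multiple of 3, against 44.1% of all events and 51.8% of called events.

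**Figure D2:**
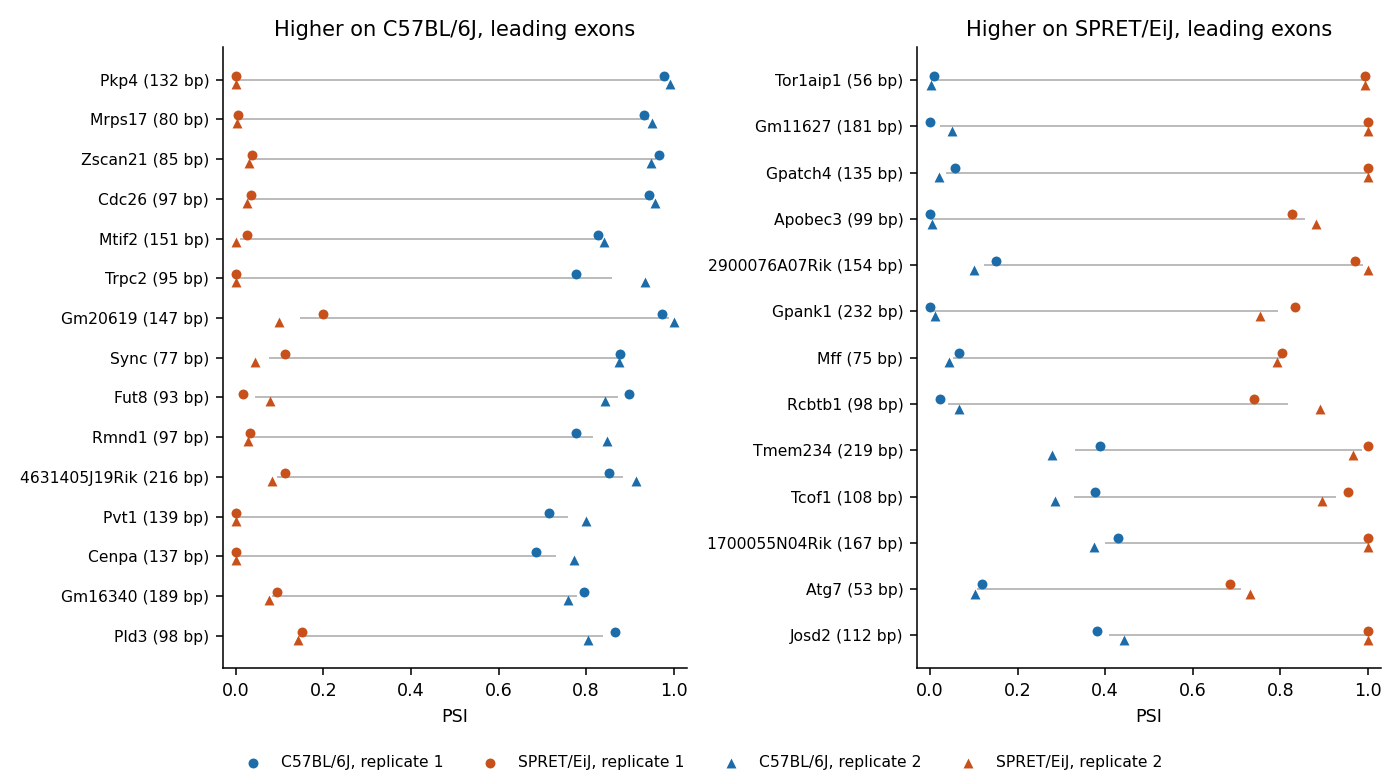
PSI (horizontal, 0 to 1) of leading exons in each direction, 1 row per exon, with blue for C57BL/6J, orange for SPRET/EiJ, circles for replicate 1 and triangles for replicate 2, and a grey line between the allele means. Exons were chosen for a difference of 1 sign in both replicates, so the separation of the alleles follows from the choice, and the plot shows its size and the spread of replicates.

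Sarcomere and Z-disc genes had 12 called events among 299 measured (4.01%, against 2.96% of all events), in 7 of 58 genes, with 9 events higher on SPRET/EiJ and 3 on C57BL/6J. The list's median |ΔPSI| was 0.00277. The gene lists here and below were drawn up with earlier results of these data known. Their members include Pkp4, Limch1 and Mff, which the study chose on these samples, so the shares called are not independent of the calls.

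Tnnt2, cardiac troponin T, had a called exon of 41 bp (chr1:135843774-135843814) at 0.555 and 0.641 on C57BL/6J against 0.96 and 1. It rested on 102 to 1010 reads per allele and replicate. Sums over the 14 events of Tnnt2 were 938142 to 1015750 junction reads per allele and replicate, with overlapping events counting a read more than once. Nebl encodes nebulette, which binds thin filaments at the Z-disc, and its 105-bp exon (chr2:17417893-17417997) was at 0.665 and 0.605 against 0.967 and 0.973. Myoz2, or calsarcin-1, a Z-disc protein that binds calcineurin, had a 172-bp exon (chr3:123033192-123033363) at 0.633 and 0.6 against 0.93 and 0.895. Ldb3, the Z-disc protein Cypher, had a 204-bp exon (chr14:34571718-34571921) at 0.709 and 0.744 against 0.944 and 0.969. In these 4 exons inclusion was higher on SPRET/EiJ.

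Nexn, the actin-binding protein nexilin, went the other way at a 42-bp exon (chr3:152249660-152249701), with 0.405 and 0.27 on C57BL/6J against 0.232 and 0.135. The alleles differed by little more than the replicates there (ΔPSI 0.154 ± 0.027, adjusted p = 0.039), and only 8.7% and 10.1% of its junction reads could be assigned to an allele. The adjusted p was 0.0949 with a prior without depth trend and 0.0652 with a minimum of 50 reads. Obsl1 was also called.

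Calcium handling and ion channel genes had 10 called events among 208 (4.81%), in 6 of 44 genes, 5 in each direction, with a list median |ΔPSI| of 0.0103. Kcnj5 encodes a subunit of the acetylcholine-gated potassium channel of the atrium. Its 303-bp exon (chr9:32342222-32342524, minus strand) was at 0.532 and 0.562 on C57BL/6J and at 0.00576 and 0 on SPRET/EiJ (ΔPSI 0.545 ± 0.025, adjusted p = 1.65e-11). Camk2d, the main cardiac isoform of the calcium/calmodulin kinase II, had a 33-bp exon (chr3:126802937-126802969) at 0.546 and 0.468 against 0.0372 and 0.0546. A neighbouring 60-bp exon of Camk2d (chr3:126805857-126805916) was at 0.35 and 0.283 against 0.036 and 0.0541. These Camk2d exons were thus included more on C57BL/6J, by a ΔPSI of 0.461 and 0.271. Both were measured against the same skipping junction, so these differences share reads and are not separate results. Neither PSI counts transcripts that hold only the other exon.

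Abcc9 encodes SUR2, the regulatory subunit of the cardiac ATP-sensitive potassium channel. Its 176-bp exon (chr6:142593967-142594142) was at 0.678 and 0.653 on C57BL/6J against 0.377 and 0.401 on SPRET/EiJ, from 1279 to 2303 reads. Asph, the locus of the sarcoplasmic reticulum protein junctin, had a 48-bp exon (chr4:9598733-9598780) at 0.774 and 0.752 against 0.996 and 0.991. Trdn, or triadin, a partner of junctin at the calcium release channel, had a 60-bp exon (chr10:33200163-33200222) at 0.878 and 0.913 against 1 and 1. The Trdn difference of -0.104 lay at the limit of 0.1 and was -0.0867 in replicate 2 alone and -0.0613 with PSI computed without effective lengths. Ank2, a membrane anchor of ion channels, was also called, at an event that departed from the PSI of all reads.

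Genes of the intercalated disc, costamere and adhesion had 13 called events among 241 (5.39%), in 9 of 58 genes, 8 higher on SPRET/EiJ and 5 on C57BL/6J, with a list median |ΔPSI| of 0.00931. Pkp4, given above, led toward C57BL/6J. Tns1, or tensin 1, which links integrins to actin, had a 24-bp microexon (chr1:73936332-73936355, minus strand) at 0.0249 and 0.0106 on C57BL/6J against 0.501 and 0.455 on SPRET/EiJ (ΔPSI -0.46 ± 0.022, adjusted p = 1.14e-13). Sptan1, the non-erythroid alpha-spectrin, had a 15-bp microexon (chr2:30014158-30014172) that went the other way, at 0.567 and 0.61 against 0.306 and 0.269. Lmo7, a LIM domain protein of adherens junctions, had a 720-bp exon (chr14:101886937-101887656) at 0.155 and 0.115 against 0.361 and 0.359. Ptk2 and Sorbs2 were also called, as was Limch1 below.

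Mitochondrial and energy metabolism genes had 10 called events among 357 (2.8%), in 3 of 80 genes, and 9 of the 10 were higher on SPRET/EiJ. The share was near the 2.96% of all events, and the list median |ΔPSI| was 0.00196. Cd36, a fatty acid transporter, had a 54-bp exon (chr5:17835618-17835671) at 0.796 and 0.802 on C57BL/6J against 0.961 and 0.971. Splicing regulators had 0 called events among 209 in 68 genes by the quasi-binomial fit (limma called 0 of all events and so says nothing of this list), with 6 at an unadjusted p below 0.05, and 1 with the replicate block. Cardiomyocyte transcription and signalling genes had 1 called event among 141, the Tor1aip1 exon.

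**Figure D3:**
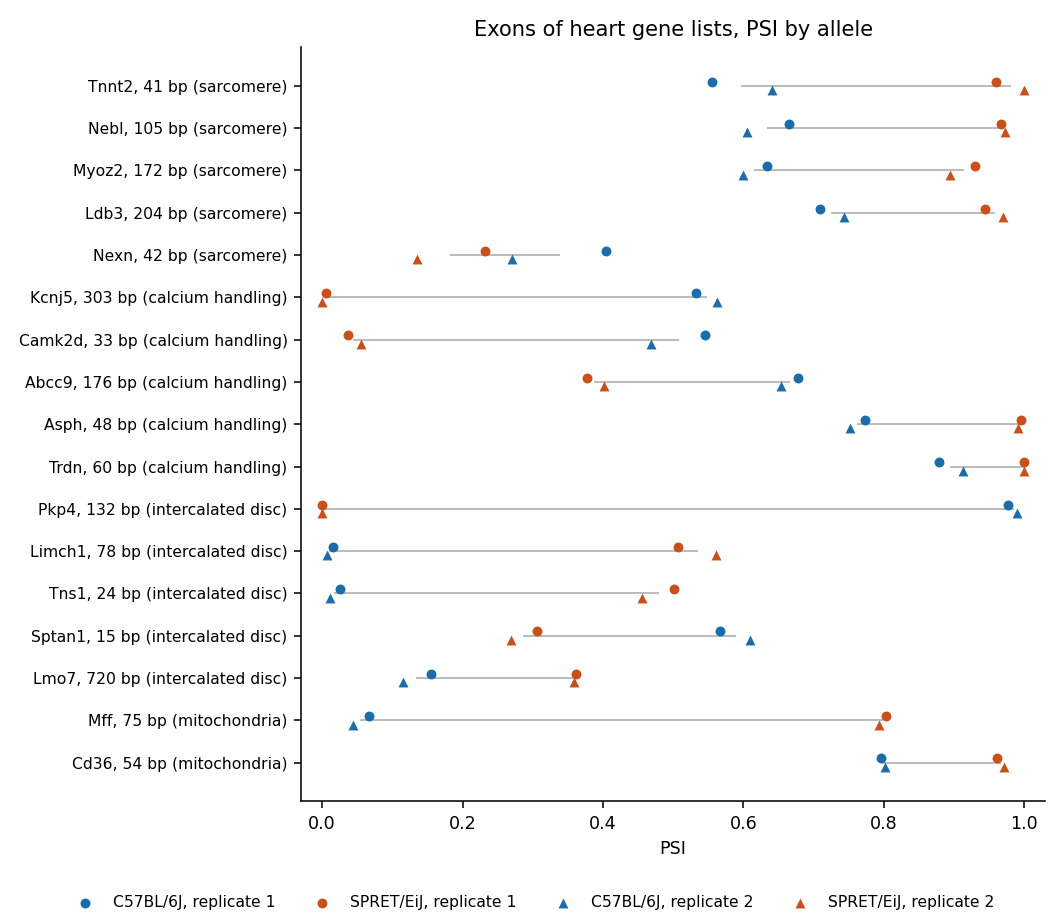
PSI (horizontal, 0 to 1) of called exons in genes of the sarcomere, calcium handling, intercalated disc and mitochondrial lists, with blue for C57BL/6J, orange for SPRET/EiJ, circles for replicate 1 and triangles for replicate 2. The lines join the allele means of exons chosen as called, and the replicates of Nexn lie far apart.

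Mff, the mitochondrial fission factor that recruits the fission GTPase to the outer membrane, held 6 of the 10 called events of its list, in overlapping combinations of 3 exons. Its 75-bp exon (chr1:82737013-82737087) was measured against 3 downstream exons. In the combination within 0.1 of the PSI of all reads, PSI was 0.0671 and 0.0438 on C57BL/6J and 0.804 and 0.793 on SPRET/EiJ (ΔPSI -0.743 ± 0.0089, adjusted p = 1.86e-10). In the other combinations ΔPSI was -0.91 and -0.853, and PSI of the allelic reads departed by more than 0.1 from that of all reads. The 159-bp exon (chr1:82741818-82741976) was higher on C57BL/6J when joined to the exon starting after position 82750519 (0.431 and 0.422 against 0.0391 and 0.0851) and lower when joined to the one after 82747082 (0.425 and 0.463 against 0.747 and 0.709). The sign of this exon thus differed between these combinations, but at both the PSI of allelic reads departed by more than 0.1 from that of all reads.

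Of the 5 genes that the study took as candidates, 4 had called events in heart. The study chose them on these samples, so their direction is not independent evidence. Pkp4 and Mff are given above. Limch1, an actomyosin regulator, had a 78-bp exon (chr5:67036026-67036103) at 0.016 and 0.00731 on C57BL/6J against 0.506 and 0.561. Thyn1, a nuclear protein, had a 151-bp exon (chr9:27006801-27006951) at 0.69 and 0.631 against 0.984 and 1. Apbb3, an adaptor that binds the amyloid precursor protein, was measured at a 6-bp microexon (chr18:36676617-36676622) at 0.721 and 1 against 0.536 and 0.527. The Apbb3 difference of 0.329 did not pass (adjusted p = 0.111, and 0.0355 with the replicate block, which would call it), with 30 and 39 reads on C57BL/6J.

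Called heart differences were followed in the other tissues, which were separate libraries. The study took the organs from the same 2 animals, so tissues other than ESC, which were 2 clones, are not independent samples of the cross, and the tests between tissues had no term for the animal. Of 380 called heart events with enough reads in cortex, 359 (94.5%) had the same sign there, against 67.4% of all 9926 events measured in both. The median |ΔPSI| of those 9926 events was 0.0181 in heart, where a sign means little, and a ΔPSI of 0 in both tissues counted as the same sign. Called events had at least 0.1, so a higher share was to be looked for among them. In kidney the sign was the same at 375 of 400 (93.8%), in lung at 389 of 408, in spleen at 334 of 357 and in ESC at 305 of 332. The events were chosen in heart, and the differences elsewhere were smaller. The median |ΔPSI| of called heart events was 0.262 in heart and 0.147 in cortex over the same 380 events, and 0.274 and 0.154 in heart and kidney over 400. Of 273 called events measured in all 6 tissues, 230 had 1 sign in all 6. At 38 called events heart was the only tissue with enough reads, among 2205 such events in all.

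The leading exons divided by how they behaved elsewhere. The Pkp4 exon had a ΔPSI of 0.954 in cortex, 0.899 in kidney, 0.994 in lung, 0.974 in spleen and 0.956 in ESC. That of Tor1aip1 was between -0.952 and -0.989 in those tissues, and Mrps17, Zscan21, Cdc26 and Fut8 were likewise of one sign in all. Other leading exons had smaller differences elsewhere. The ΔPSI of Cenpa was 0.728 in heart and 0.149 in cortex, from as few as 20 reads there, and that of Pvt1 0.757 and 0.481. That of 2900076A07Rik was -0.86 in heart, -0.259 in cortex and -0.324 in kidney. None of them passed the test of the difference between tissues. In Rmnd1 the exon was skipped on both alleles elsewhere. In kidney its PSI was 0.0153 and 0.0234 on C57BL/6J and 0 and 0.00161 on SPRET/EiJ, and ΔPSI in the 5 other tissues lay between 0.0186 and 0.0855, against 0.782 in heart. The log-odds difference, which the interaction test compares, did not pass for Rmnd1 (adjusted p = 1 for cortex and kidney). The Limch1 exon had a ΔPSI of -0.522 in heart, -0.228 in cortex and -0.0174 in kidney. That of Abcc9 was 0.277 in heart and 0.00515 in kidney, and that of the 720-bp exon of Lmo7 was -0.225 in heart and 0.00201 in cortex. The tests of the difference did not pass for these 3 exons either. On the log-odds scale a tissue with PSI near 0 or 1 on both alleles carries little information, so these tests do not show that the allelic differences are alike.

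Whether the allelic difference itself differed between heart and another tissue was tested as an interaction of allele and tissue on the log-odds scale. Against cortex, 32 of 9926 events (0.322%) passed, in 26 genes, with the larger |ΔPSI| in heart at 21 and in cortex at 11. Against kidney, 21 of 10809 (0.194%) passed, in 20 genes, with the larger |ΔPSI| in heart at 13 and in kidney at 8. At an unadjusted p below 0.05 there were 517 of 9926 and 525 of 10809, about the share that a limit of 0.05 passes where no event differs. Tissues are mixtures, and in bulk samples fewer cells of a type and less RNA per cell cannot be told apart.

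The largest difference between heart and cortex was at an Mff event whose PSI from allelic reads departed by more than 0.1 from that of all reads. The 75-bp exon of Mff, joined to the 159-bp exon, was at 0.0915 and 0.0668 on C57BL/6J and 0.996 and 0.983 on SPRET/EiJ in heart, but at 0.0581 and 0.0291 and 0.224 and 0.234 in cortex, a difference of ΔPSI of -0.725 (adjusted p = 1.97e-20). The combination within 0.1 of all reads did not pass, with a difference of -0.379 against cortex (adjusted p = 0.207) and -0.709 against kidney (adjusted p = 1). Psma4, an alpha subunit of the proteasome, had an 85-bp exon (chr9:54951344-54951428) at 0.781 and 0.723 on C57BL/6J and 0.109 and 0.132 on SPRET/EiJ in heart. That exon was at 0.0885 and 0.1 and 0.0308 and 0.0388 in cortex, so it was skipped there on both alleles, and also at 0.124 and 0.0659 and 0.0369 and 0.0443 in kidney. The difference of ΔPSI for Psma4 was 0.571 against cortex (adjusted p = 0.0183) and 0.577 against kidney (adjusted p = 2.39e-05), although the PSI of allelic reads departed from that of all reads.

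Exons of Camk2d differed between heart and cortex as well. The 33-bp exon was at 0.546 and 0.468 against 0.0372 and 0.0546 in heart, but at 0.203 and 0.185 on C57BL/6J and 0.212 and 0.194 on SPRET/EiJ in cortex, a difference of ΔPSI of 0.47 (adjusted p = 2.03e-05). The Camk2d 60-bp exon, measured against the same skipping junction, differed by 0.265 (adjusted p = 4.31e-07). The Sptan1 microexon was at 0.935 and 0.934 on C57BL/6J and 0.941 and 0.938 on SPRET/EiJ in cortex, near-constitutive on both alleles, against the difference of 0.301 in heart (adjusted p = 0.000134). Against kidney neither passed, with a difference of 0.465 for the 33-bp exon of Camk2d (adjusted p = 0.896) and 0.213 for Sptan1 (adjusted p = 1).

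In the other direction the allelic difference was larger in the second tissue. Pts, an enzyme of tetrahydrobiopterin synthesis, had a 23-bp exon (chr9:50525262-50525284) with a ΔPSI of 0.115 in heart and -0.391 in cortex (adjusted p = 0.0424, and 0.0917 with the replicate block), from 20 to 33 reads in cortex. Pdlim7, a Z-disc and actin-binding protein, had a 17-bp exon (chr13:55507864-55507880) with -0.125 in heart and 0.35 in cortex (adjusted p = 0.00135). The Pdlim7 heart replicates differed in sign, with 0.434 against 0.399 in replicate 1 and 0.355 against 0.64 in replicate 2. At both exons the PSI of allelic reads departed by more than 0.1 from that of all reads. Myom2, the M-band protein myomesin 2, had a 23-bp exon (chr8:15130635-15130657) at 0.995 and 0.996 on C57BL/6J and 0.995 and 0.994 on SPRET/EiJ in heart. In kidney it was at 0.549 and 0.52 against 0 and 0.0448, from 35 to 84 reads, a difference of ΔPSI of -0.511 (adjusted p = 0.00923).

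**Figure D4:**
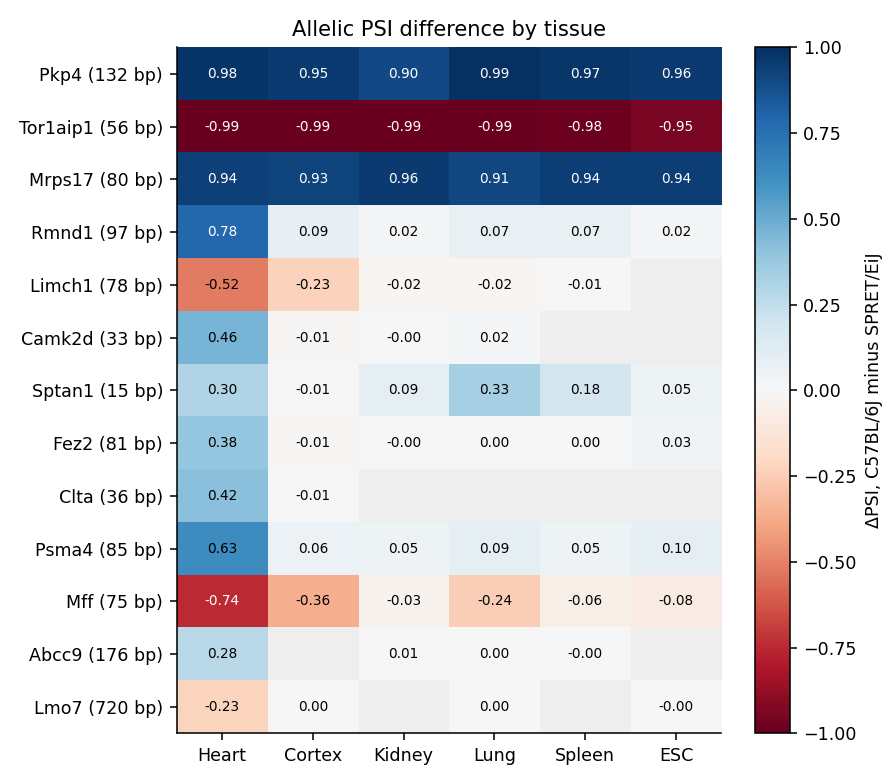
ΔPSI (C57BL/6J minus SPRET/EiJ, mean of 2 replicates) of selected exons in heart and 5 other tissues, with blue for more inclusion on C57BL/6J, red for more on SPRET/EiJ and grey where fewer than 20 reads lay on an allele in a replicate. The values of Pkp4, Tor1aip1 and Mrps17 are alike in all tissues, while those of Rmnd1, Camk2d, Fez2 and Psma4 are at most 0.0956 outside heart. Fez2 and Clta were chosen after their values were seen.

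Allelic balance asked how evenly the 2 alleles contribute to the junction reads of each gene. Of 7377 genes with 20 or more summed reads in each replicate, 886 (12.0%) were called, with an adjusted p below 0.05 and a ratio of at least 2 to 1 relative to the median gene. Reads were summed over all events of a gene, so overlapping events counted a read more than once. The test took such repeats as separate reads. The 20 genes named by rule kept their direction and call with the best covered event alone and with non-overlapping events. They leaned toward C57BL/6J at 465 (6.30%) and toward SPRET/EiJ at 421 (5.71%). The median gene had 50.7% and 50.8% C57BL/6J reads, and 72.1% of genes lay within 1.5 to 1. Across genes, which are not independent replicates, the log2 ratios of the replicates correlated with r = 0.808. Of the 382 genes with a called exon 68 (17.8%) were also called for balance. An included exon gives 2 junctions and a skipped one 1, so an allelic PSI difference alone shifts this balance. A called exon also needed 20 reads on each allele, so this share cannot be set directly against 12.0%.

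Imprinted genes, which are known to be transcribed from 1 parental copy, checked the allele labels. Of 5 measured genes known for paternal expression, Snrpn, Sgce, Impact and Mest leaned toward SPRET/EiJ, the paternal copy, and Inpp5f did not pass (adjusted p = 0.346). All 4 measured genes known for maternal expression, Grb10, Meg3, Igf2r and Rian, leaned toward C57BL/6J. Snrpn, a spliceosomal Sm protein gene (chr7:59982495-60450177), had 0 and 1 reads on C57BL/6J against 3904 and 3568 on SPRET/EiJ, and 0 reads allow a share of up to 0.0768%. Grb10, an adaptor that restrains growth signalling, had 757 and 861 reads on C57BL/6J against 5 and 5. Igf2r, the receptor that clears IGF2, had 4688 and 4633 against 73 and 102. Impact stood apart, with a C57BL/6J share of 22.9% and 25.2%.

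**Figure D5:**
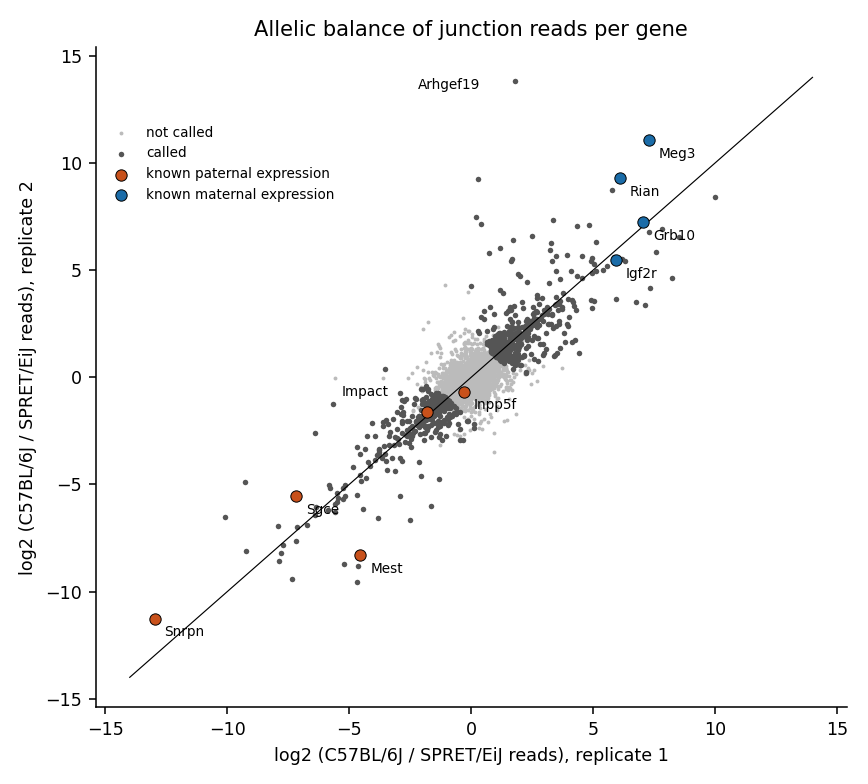
Log2 ratio of C57BL/6J to SPRET/EiJ junction reads per gene, relative to the median gene, in replicate 1 (horizontal) and replicate 2 (vertical) for 7377 genes, with dark points called. Orange marks genes known for paternal expression (Snrpn, Sgce, Mest, Impact and Inpp5f) and blue those known for maternal expression (Meg3, Rian, Grb10 and Igf2r), which lie on opposite sides of 0, with Inpp5f among the bulk of genes and Impact nearer to it than the others, and Arhgef19 lies off the line.

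Beyond imprinted genes, the strongest leans toward SPRET/EiJ among genes with 100 or more reads in each replicate included Kpna2 and Dusp13. Kpna2, the importin alpha nuclear transport receptor (chr11:106988629-106999525), had 18 and 4 reads on C57BL/6J against 2952 and 2963 on SPRET/EiJ. Dusp13, a muscle phosphatase, had 4 and 3 against 983 and 1000, and Bpifb5 had 1 and 3 against 870 and 937. Kansl2, Cr2 and Hesx1 had between 0 and 14 reads on C57BL/6J. The ribosomal protein genes Rpl28 and Rpl13 stood in the same group with 39 to 59 C57BL/6J reads, but such genes have near-identical copies in the genome and their values are uncertain.

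Toward C57BL/6J the leading genes were Tmbim6, Meg3, Arhgef19, Rian, 2610035D17Rik, 1500017E21Rik, Rhog, Grb10, Ogdhl and Tsacc. Tmbim6, an endoplasmic reticulum protein that guards against cell death (chr15:99392947-99410049), had 3675 and 3708 reads on C57BL/6J against 3 and 10. Ogdhl, an oxoglutarate dehydrogenase-like enzyme (chr14:32321982-32348151), had 3658 and 2910 against 22 and 25. Arhgef19, a guanine nucleotide exchange factor, had 1161 SPRET/EiJ reads in replicate 1 and 0 in replicate 2, against 4198 and 7561 on C57BL/6J, so the replicates disagreed and its log2 ratio was 1.81 and 13.84.

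Among heart gene lists, 6 of 60 sarcomere genes were called for balance, near the 12.0% of all genes. Fhl2, a LIM protein of the Z-disc, had a C57BL/6J share of 68.9% and 68.7%, and Trim63, the muscle ubiquitin ligase MuRF1, 72.5% and 72.7%. Ankrd2, a stretch-responsive ankyrin repeat protein, had 8 and 0 C57BL/6J reads against 302 and 204. Of 46 calcium handling and channel genes 7 were called. S100a1, a calcium sensor of the cardiomyocyte, had a C57BL/6J share of 70.5% and 71.2%, and Kcnip2, the subunit that sets the transient outward potassium current, 32.1% and 31.3%. Of 80 mitochondrial and energy genes 3 were called, and Eci2, an enoyl-CoA isomerase of fatty acid oxidation, had 11.7% and 10.7%. Ldha, the muscle-type lactate dehydrogenase subunit, had 90.4% and 90.4%, and as a gene with processed copies it is uncertain. Of 59 intercalated disc genes 1 was called, Ctnna3, or alpha-T-catenin, at 76.6% and 73.9%, and of 72 splicing regulators 7 were called.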

How the data were processed

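Female F1 mice (C57BL/6J mother, SPRET/EiJ father) gave 2 heart libraries. The authors trimmed reads to one length, aligned them with HISAT2 2.0.1 (version and mm10 from the submitters' processing notes) to both parental genomes, assigned a read to the allele with the smaller edit distance, set ties aside, and counted junction reads per skipped exon with rMATS. The deposited junction read counts are raw and hold both replicates in one list. The deposited TPM values come from all reads, made by the authors. Columns with the authors' own p-values, FDR and inclusion differences were not used.

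PSI was computed anew from the counts and the effective form lengths. In all 21840 events the reads of both alleles summed to those of the either-allele column at the same list position, so a position pairs both alleles of a library. Replicate differences of the alleles correlated with r = 0.0906 over 4404 events not near 0 or 1. The fit had no block, as in the study. It was a quasi-binomial logistic fit with dispersions of at least 1 moderated by limma 3.58.1 in R 4.3.3 toward a prior that follows depth, in which only events with 10 or more reads of the rarer form took part, a limit set after the files were seen and before a fit was. P-values were Benjamini-Hochberg adjusted over all events. They rest on read counts and on a dispersion that comes from 2 animals and is partly borrowed across events through the prior. Without a block the alleles of 1 animal count as separate sets. A very small p-value is thus no measure of the variation between animals. Liver tables were not used here. Balance was tested against the median share. The steps were tested on simulated data. Alternatives were the replicate block, no depth trend, limma on logit PSI with 0.5 added, read limits, event filters, effective lengths and each replicate left out.

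Exons were named by rule: called, of 1 sign in both replicates, within 0.1 of the PSI of all reads, ranked by the smaller difference, 15 per direction and 6 per gene list. Balance named 10 genes per direction with 100 or more reads, and the tissue tests named 5 events each. Other events named from the tissue tests belong to the gene lists or were chosen after their values were seen. Some items that met the rules are not reported here. The members and lists were chosen with earlier results of these data known. Read counts per event set precision, and intervals cover counting error only. Exon coordinates are those of the tables, and gene positions come from RefSeq on GRCm38, which matched 7327 of 7377 genes by symbol. Python 3.11.15 with numpy 2.4.6, pandas 2.3.3 and matplotlib 3.10.9 was used.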

Additional observations from a re-analysis of the deposited data

Results flagged for a closer look

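These exons passed a test of whether their allelic difference differed between heart and another tissue, and each value is the ΔPSI in heart minus that in the other tissue. Against cortex the Mff exon of 75 bp gave -0.725 and -0.205 in 2 combinations of flanking exons. Both departed by more than 0.1 from the PSI of all reads, while the third gave -0.379 and did not pass (adjusted p = 0.207). The Mff exon of 159 bp gave 0.492, Psma4 0.571, Pts 0.506 and Pdlim7 -0.475, each at an event that departed likewise. In Camk2d the exons of 33 bp and 60 bp, which share a skipping junction, gave 0.47 and 0.265, and Sptan1 gave 0.306. Ank2 gave 0.187 at a 92-bp exon, Lmo7 0.175 at a 109-bp exon and Ndufv3, a complex I subunit, 0.159 at an exon of 1092 bp. These Ank2, Lmo7 and Ndufv3 events were not called in heart. Their ΔPSI was 0.0525, 0.0412 and 0.00717 in heart and -0.134, -0.134 and -0.152 in cortex.

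Against kidney Psma4 gave 0.577, Myom2 -0.511 and Sept4, a septin, -0.453. The Psma4 and Sept4 events departed by more than 0.1 from the PSI of all reads. Fcgr2b, an inhibitory Fc receptor, gave 0.406 and Zfp62 gave 0.344. Neither event was called in heart. The ΔPSI of Fcgr2b was 2.94e-05 in heart and -0.406 in kidney, and that of Zfp62 0.143 and -0.202. The Mff exon of 159 bp gave 0.341 when joined to the exon starting after position 82750519 and -0.322 when joined to the one after 82747082. Both Mff events departed by more than 0.1 from the PSI of all reads.

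X-linked junction reads, which the comparisons left out, were seen on both alleles. They gave a C57BL/6J share of 39.4% in replicate 1 and 38% in replicate 2, against 50.6% and 50.5% over all events, and 168 of 223 X-linked genes had more SPRET/EiJ reads in both replicates.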

How the results depend on the processing

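Limma on logit PSI called 0 events, with 2184 at an unadjusted p below 0.05, and the cause was not tested. The replicate block called 628 events including all 494 called without it, and called 31 events against cortex, losing Pts, and 27 against kidney, and it called the Apbb3 microexon. The prior without depth trend called 401, read limits of 10 and 50 called 566 and 395, the filter on agreement with all reads 430, leaving out events near 0 or 1 gave 675, and PSI without effective lengths 441. Each replicate alone kept 474 to 478 of the 494 at 0.1 or more with the same sign, 791 to 798 of 886 genes for balance, 30 to 31 events against cortex and 20 to 21 against kidney. A prior without depth trend called 30 against cortex and 15 against kidney. Balance calls ranged from 681 with a limit of 100 reads to 901 against an equal share. Reads per effective length called 855 genes and leaving out imprinted genes 877, both chosen after the data were seen. Outside limma, 543 of 548 values of the 47 exons and 20 genes named kept direction and stayed past the thresholds, and none reversed. Values lost there included those of Nexn and Trdn. The block, the prior, the read limits and the event filters leave the ΔPSI of an exon unchanged, so its direction could not reverse. Exons were named for 1 sign in both replicates, so leaving a replicate out could not reverse them either, and no test was run there. Under limma all 47 exons lost their call. Called events had a median of 262 reads per allele and replicate.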

Other observations

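Pecam1, the adhesion receptor of endothelial cells, was chosen after its values were seen and had 5 called events. Its 23-bp exon (mm10 chr11:106662002-106662024) had a PSI of 0.509 and 0.56 on C57BL/6J against 0.855 and 0.867 on SPRET/EiJ, and the 57-bp exon was at 0.558 and 0.567 against 0.79 and 0.794. A 54-bp exon of Pecam1 was at 0.771 and 0.805 against 0.928 and 0.899. With another flanking exon, the 23-bp exon was at 0.337 and 0.402 against 0.0943 and 0.0977, the opposite sign.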
